A study of Mus musculus with 98 samples.

Results

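The 39 genes described here encode the lysosome and the machinery of autophagy. They were taken from a list: 3 MiT/TFE transcription factors, 5 proteins of the lysosomal membrane, 12 lysosomal enzymes and their cofactors, 4 subunits of the proton pump and 15 proteins of the autophagy machinery. All 39 of 39 were present in each of the 6 gene count tables, out of 55852 gene names listed in all, and all 39 passed the filter on low counts in every fit. The study raised ACSS2, the enzyme that makes acetyl-CoA from acetate, with a PhP.eB virus in mouse hippocampal neurons and in mice, and 98 RNA-seq libraries in 22 groups were deposited.

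Primary embryonic hippocampal neurons of CD1 mice received the Acss2 virus (upACSS2) or the empty vector on day 5 of culture and hAD-tau or PBS on day 7. They were sampled on day 9 or day 21, which gave 8 groups of 3 libraries. A further 4 groups of 3 libraries were labelled stimulated on day 21, and their labels name neither the stimulus nor the strain. In a separate experiment without virus, CD1 neurons on day 21 had received hAD-tau (4 libraries) or PBS (3 libraries). Every mouse in the study was male and was injected behind the eye or, for PS19, treated by a route the labels do not name. C57BL6 mice labelled 22 to 23 months old were sampled 2 months after 1.5e+11 viral genomes, given at 21 to 22 months (these entries do not add up, and are given as labelled), as whole hippocampus 30 minutes after recall of a remote context memory (12 upACSS2, 12 vector). C57BL6 mice aged 10 months were sampled 2 weeks after 1.2e+11 viral genomes, as dorsal hippocampus 30 minutes after fear conditioning (6 upACSS2, 5 vector). PS19 mice, a strain transgenic for a mutant human tau, received 1.5e+10 viral genomes at 2.5 months of age. They were sampled 1 month later, at 3.5 months, or 6 months later, at 8.5 to 9 months, in 4 groups of 5 and 30 minutes after recall of the context. The PS19 mice with upACSS2 at 1 month are labelled whole hippocampus and the other PS19 groups dorsal hippocampus, so at 1 month tissue and virus cannot be told apart. Groups follow the sample titles, since the treatment entry goes against the title for neurons with vector and tau, neurons with upACSS2 and PBS, all PS19 upACSS2 mice at 1 month and 1 PS19 vector mouse at 1 month. The promoter that drives Acss2 in the virus is not given in the sources used here.

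As background, lysosomes are acidic organelles that digest proteins, glycans and lipids, and autophagy delivers cytoplasm and protein aggregates to them inside double membranes. TFEB and its relatives TFE3 and MITF enter the nucleus when mTORC1 is inactive and bind the palindrome CACGTG, with fixed flanking letters in the CLEAR element, in promoters of many lysosomal genes. Nuclear ACSS2 is known to act together with TFEB at such promoters by supplying acetyl-CoA for histone acetylation. Inherited loss of several of these genes causes lysosomal storage disease in the brain, for instance of Hexa, Tpp1, Cln3, Ctsd or Grn.

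The palindrome was looked up in RefSeq promoters (build GRCm38.p6, 250 bases before to 50 after each start, both strands being equivalent for a palindrome). Of the 39 genes 32 were in that table, with 40 promoters. CACGTG stood in 11 of the 40 (27.5%), against 2349 of all 32851 promoters (7.15%). TCACGTGA, which contains it, stood in 7 of 40 (17.5%) against 0.974% of all promoters, and the 10-base CLEAR palindrome, which contains both, in 1 of 40 (Cln3, 2.5%) against 0.326%. By role it was found for 3 of 5 membrane genes (Cln3, Lamp1, Mcoln1), 4 of 11 enzyme genes (Ctsa, Ctsd, Ctsl, Gla), 2 of 2 pump genes (Atp6v0d1, Atp6v1a), 2 of 11 autophagy genes (Atg5, Atg7) and 0 of 3 MiT/TFE genes. A match is a description of these letters and not a measured binding site. The letters around it are shown for 6 genes to which the results below return, 5′ to 3′ on the strand of the gene, with the palindrome in capitals. Where a UTR of some transcript is annotated at the place, 1 site of 30 bases is shown, and elsewhere the whole stretch. Lamp1 (chr8:13159078-13159160, plus strand), whose 4 upstream copies lie just before the start, encodes the main glycoprotein of the lysosomal membrane. Cln3 (chr7:126583340-126583369, minus strand) encodes a membrane protein whose loss causes juvenile Batten disease. Ctsd (chr7:142387908-142387937, minus strand) and Ctsa (chr2:164833749-164833778, plus strand) encode cathepsins. Gla (chrX:134601215-134601244, minus strand) encodes alpha-galactosidase A, and Atp6v1a (chr16:44139363-44139412, minus strand) the catalytic subunit of the pump.
Lamp1: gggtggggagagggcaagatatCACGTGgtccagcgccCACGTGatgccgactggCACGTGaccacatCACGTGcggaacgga
Cln3: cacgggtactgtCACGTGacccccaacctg
Ctsd: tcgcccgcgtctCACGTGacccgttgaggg
Ctsa: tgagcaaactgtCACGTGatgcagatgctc
Gla: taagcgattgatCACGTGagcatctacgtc
Atp6v1a: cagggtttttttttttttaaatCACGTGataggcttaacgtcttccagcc

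Levels are given in CPM, which divides the counts of a gene by its library's total after TMM scaling, as mean ± SD. Differences are log2 fold changes ± SE from edgeR's quasi-likelihood test. A gene is said to have risen or fallen, or to have passed, where the p-value, adjusted by Benjamini-Hochberg over all genes of the fit, was under 0.05. The labels do not say that libraries of a group came from separate cultures, so for neurons the p-values measure only the spread between these samples, which may be technical. Of the 39 genes 16 have an exon overlapping another gene, 15 of them one on the opposite strand (among them Hexa, Ctsa, Cln3, Atp6v1h and Sqstm1), and whether the counting used strand is not given in the sources used here, so their counts may hold reads of the neighbour. Total counts per library ran from 5075100 to 39985500. Acss2 was 1719 ± 235 to 4401 ± 933 CPM in the 6 neuron groups with upACSS2 and 45.9 ± 5.04 to 53.6 ± 6.58 CPM in the 6 with vector; this follows the titles, not the contradicting treatment entries. In mice Acss2 did not pass the test in any of the 4 comparisons: it was at 54.4 ± 4.67 against 47.3 ± 3.39 CPM in aged mice, 55.8 ± 4.20 against 44.8 ± 3.06 CPM at 10 months, 636 ± 646 against 55.1 ± 6.33 CPM in PS19 mice at 1 month and 110 ± 76.4 against 48.2 ± 5.11 CPM at 6 months. Its unadjusted p in edgeR was 0.000274 in aged mice, where the groups overlapped, and 0.000659 at 10 months, where they did not. The 12 neuronal markers summed to 4139 CPM or more in every library. The 12 microglial markers summed to 3.5 to 20.9 CPM in the neurons with virus, 26.2 to 454 CPM in the culture without virus and 371 to 1337 CPM in hippocampus. The 12 astrocyte markers were present throughout, at 2443 CPM or more.

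**Figure D1:**
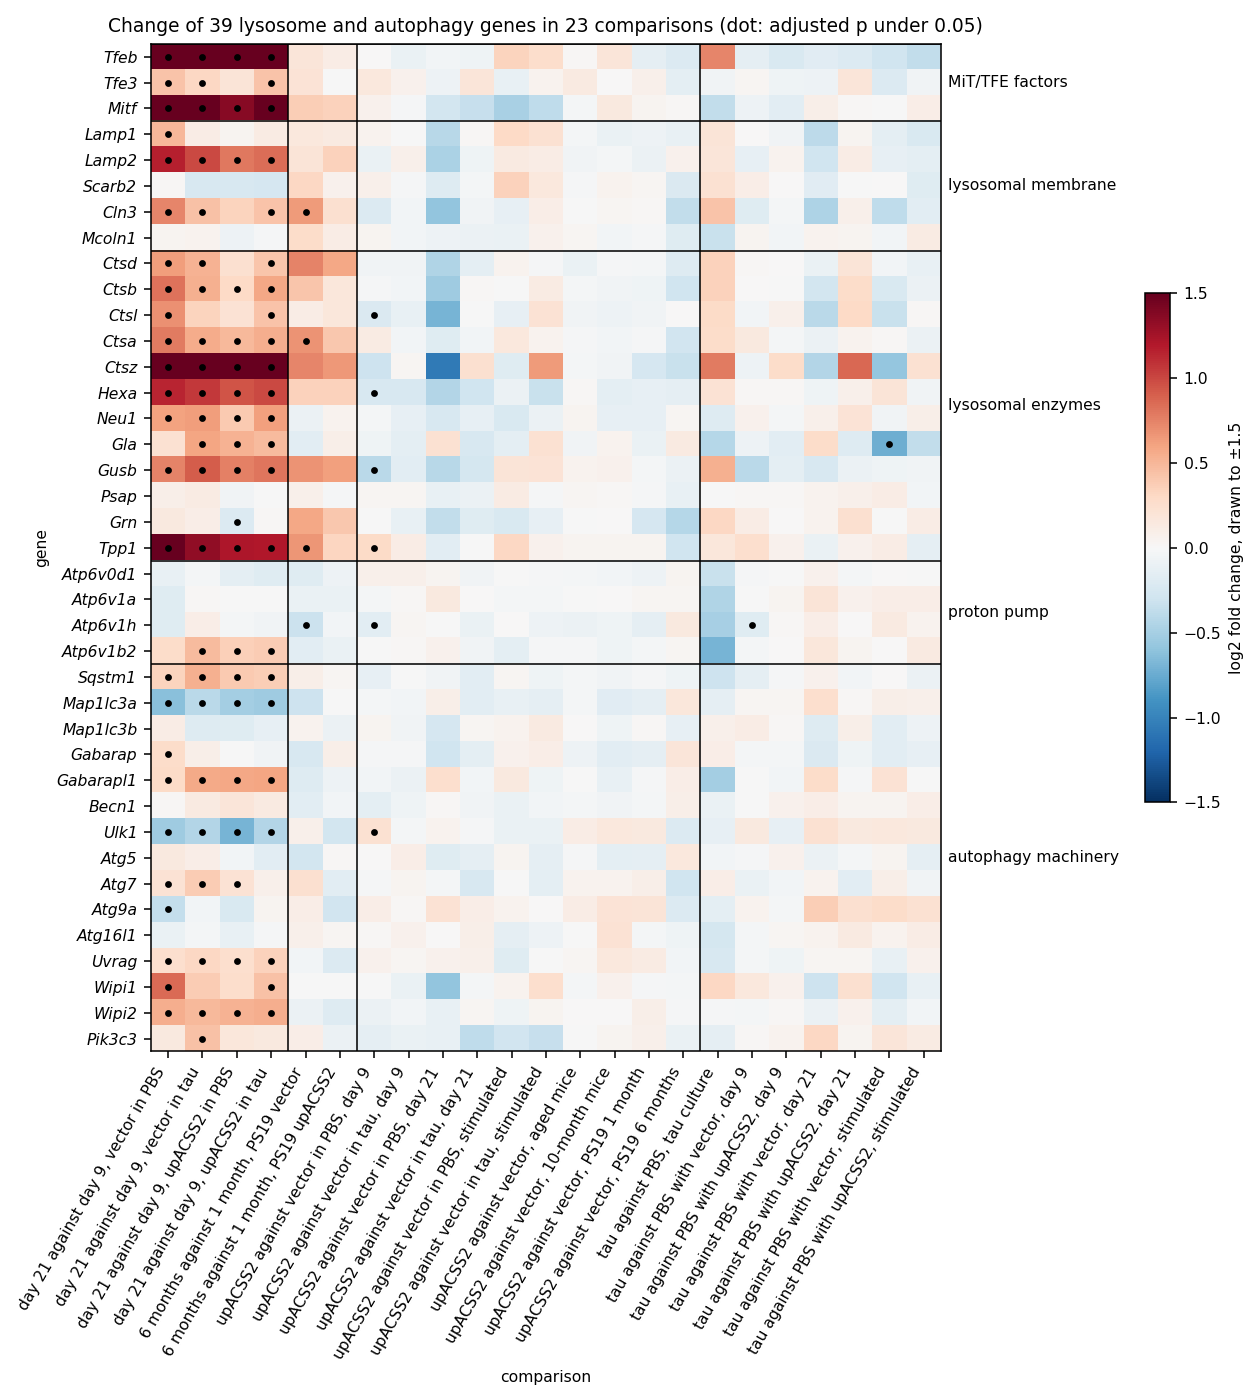
Log2 fold change of each of the 39 genes (vertical axis, ordered by role) in each of the 23 comparisons (horizontal axis), as colour, with a mark where the adjusted p was under 0.05. The 4 comparisons of day 21 with day 9 hold most of the marks, and the comparisons of upACSS2 with vector in mice hold none.

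The strongest differences among these genes lay between the culture days. From day 9 to day 21 most of the MiT/TFE factors (2 or 3 of 3) and of the lysosomal enzymes (8 to 10 of 12) rose, few of the pump subunits passed the test (0 or 1 of 4), and the autophagy genes that passed went both ways. In neurons with vector and PBS 22 of the 39 rose and 3 fell, against 30.6% of all genes that rose and 27.1% that fell (57.7% in all). The counts were 21 and 2 with vector and tau (27.7% and 24.9% of all genes, 52.6% in all), 17 and 3 with upACSS2 and PBS (28.5% and 25.8%, 54.3% in all), and 21 and 2 with upACSS2 and tau (27.2% and 26.4%, 53.6% in all). The share of the 39 that changed in either direction was thus near the background, and what differed was the direction, mostly up. With vector and PBS 28 of the 39 lay under an unadjusted p of 0.05 (61.9% of all genes), and in 23 the days did not overlap (58.3%). The median log2 fold change of the 39 was 0.28, 0.38, 0.22 and 0.36 in that order, and that of all genes 0.05, 0.05, 0.03 and 0.01. These tests share 1 estimate of the spread over both days. The common coefficient of variation between libraries was 0.135 in that fit, 0.042 on day 9 alone and 0.189 on day 21 alone. The shared spread is thus too wide for day 9 and too narrow for day 21.

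Of the transcription factors, Tfeb (chr17:47737030-47792419, plus strand, GRCm38), the best known regulator of lysosomal genes, rose about alike in all 4 sets of neurons. With vector and PBS it was at 1.63, 2.11 and 1.76 CPM on day 9 and at 4.32, 5.50 and 8.23 CPM on day 21. With vector and tau it was at 1.86, 1.42 and 1.65 CPM and then at 4.04, 7.51 and 4.75 CPM. With upACSS2 and PBS it was at 1.97, 1.91 and 1.52 CPM and then at 7.86, 4.19 and 5.80 CPM, and with upACSS2 and tau at 1.53, 1.61 and 1.49 CPM and then at 4.35, 5.46 and 5.50 CPM. Every day 21 library thus lay above every day 9 library, and the day 21 libraries were spread widely. The log2 fold changes were 1.74 ± 0.27, 1.72 ± 0.28, 1.72 ± 0.27 and 1.73 ± 0.27, with adjusted p of 1.4e-05, 3.5e-05, 2.1e-05 and 2.2e-05. Mitf, its relative in pigment cells and phagocytes, rose by 1.68, 1.88, 1.37 and 1.55 on the log2 scale. Tfe3 rose by 0.42, 0.32 and 0.43 in 3 of the 4 sets and not with upACSS2 and PBS, where the change was 0.19.

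The 12 enzymes and cofactors had median log2 fold changes of 0.72, 0.57, 0.44 and 0.56, and 9, 9, 8 and 10 of them rose. The largest change was that of Ctsz (chr2:174427493-174439039, minus strand), cathepsin Z, a carboxypeptidase abundant in microglia. With vector and PBS it was at 2.82, 1.81 and 2.36 CPM on day 9 and at 17.1, 13.2 and 27.0 CPM on day 21. With upACSS2 and PBS it was at 1.64, 1.98 and 2.31 CPM and then at 9.75, 8.34 and 9.75 CPM. No day 21 library overlapped a day 9 library, and its log2 fold change was 3.01 ± 0.26, 2.62 ± 0.27, 2.24 ± 0.27 and 2.82 ± 0.26 in the 4 sets. Tpp1 (chr7:105744811-105752235, minus strand), the tripeptidyl peptidase lost in late infantile Batten disease, rose by 1.67, 1.32, 1.21 and 1.20 on the log2 scale. Hexa (chr9:59539540-59565109, plus strand), the subunit of hexosaminidase A lost in Tay-Sachs disease, rose by 1.14, 1.06, 0.95 and 0.99. Neu1, the sialidase, and Ctsa, the cathepsin that protects it, rose in all 4 sets as well. Ctsd, the main aspartic protease of the lysosome, rose in 3 sets and had a change of 0.24 ± 0.11 with upACSS2 and PBS (adjusted p 0.061). Psap, the precursor of the saposins that present lipids to the hydrolases, did not pass the test in any set. Grn, progranulin, passed it with upACSS2 and PBS alone, where it fell by 0.21, and that call was lost without each of 5 of the 6 libraries (all but replicate 3 of day 21).

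Among the membrane genes Lamp2, needed for fusion of autophagosomes with lysosomes, rose in all 4 sets, by 1.16, 0.99, 0.79 and 0.84 on the log2 scale. Lamp1 was at 387, 397 and 393 CPM on day 9 and at 404, 492 and 766 CPM on day 21 with vector and PBS, and passed there (0.50 ± 0.16, adjusted p 0.012). That call rested on replicate 3 of day 21, without which the change was 0.18 (adjusted p 0.234), and it was lost with only the 2 groups compared (adjusted p 0.115). Its changes of 0.11, 0.04 and 0.12 in the other sets did not pass. Cln3 rose in 3 sets, by 0.73 with vector and PBS, 0.44 with vector and tau and 0.43 with upACSS2 and tau. Without replicate 3 of day 21 the first was 0.45 (adjusted p 0.0175) and the third 0.25 (adjusted p 0.284), and the call with vector and tau was lost without any one of its 6 libraries. Mcoln1, the calcium channel of the lysosome, and Scarb2, the receptor that carries glucocerebrosidase, did not pass in any set. Of the pump subunits 0, 1, 1 and 1 of 4 passed, each time Atp6v1b2, the nucleotide-binding B subunit of brain, which rose by 0.47, 0.35 and 0.38 where it passed and differed by 0.27 with vector and PBS.

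The autophagy machinery split. Of its 15 genes 7, 6, 5 and 5 rose and 3, 2, 2 and 2 fell, with median log2 fold changes of 0.15, 0.14, 0.17 and 0.08. Sqstm1, the p62 receptor that ties ubiquitinated cargo to the autophagosome, rose by 0.33, 0.53, 0.40 and 0.36 on the log2 scale. Gabarapl1, an ATG8 protein, rose by 0.29, 0.57, 0.58 and 0.60, and Wipi2, which binds the phosphoinositide of the forming membrane, by 0.54, 0.48, 0.52 and 0.54. Map1lc3a, an LC3 protein, was at 195, 217 and 183 CPM on day 9 and at 148, 126 and 111 CPM on day 21 with vector and PBS. Its log2 fold changes were -0.62, -0.40, -0.51 and -0.53, and it fell in all 4 sets. Ulk1, the kinase that starts autophagy, fell in all 4 sets too, with -0.53, -0.44, -0.70 and -0.44. Map1lc3b, the LC3 protein most often used as a marker of autophagosomes, did not pass in any set (0.11, -0.19, -0.18 and -0.12).

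Further genes of the pathway, from a list drawn up beside the 39, gave these counts in the same order of sets. Of 31 other lysosomal enzymes and cofactors 21, 17, 13 and 17 rose and 2, 1, 2 and 2 fell. Of 15 other membrane proteins tested 13, 10, 9 and 11 rose. Of 14 other pump subunits 6, 8, 6 and 4 rose and 2, 0, 1 and 0 fell. The 29 other autophagy genes split, with 9, 12, 11 and 7 up and 8, 7, 7 and 5 down. The 17 genes by which mTORC1 controls TFEB split as well, 5, 2, 4 and 2 up and 6, 4, 3 and 3 down. In neurons with upACSS2 and tau, for example, Arsb, arylsulfatase B, rose by 1.59 ± 0.13 on the log2 scale and Lamp5, a LAMP protein of neurons, by 2.30 ± 0.23, while Ulk2, the relative of Ulk1, fell by 0.87.

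**Figure D2:**
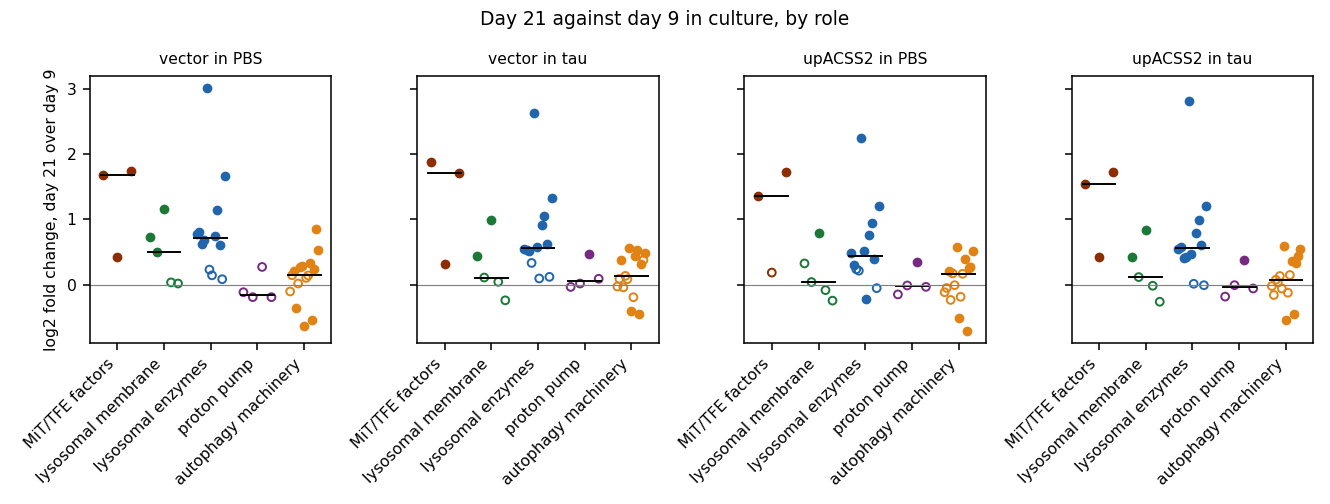
Log2 fold change of day 21 over day 9 for each gene (points), by role, in the 4 sets of unstimulated neurons; filled points passed the test, open ones did not, and the line of each role is its median. The enzymes lie highest as a role after the MiT/TFE factors, and the autophagy genes lie on both sides of 0.

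Glial markers moved with the same comparison. The summed level of the 12 astrocyte markers was 2443 to 3017 CPM on day 9 and 3936 to 21121 CPM on day 21, and that of the 10 oligodendrocyte markers 37.8 to 47.4 CPM and then 213 to 1376 CPM, with the highest astrocyte level in replicate 3 of vector and PBS. Microglial markers were near 0 on both days. In such bulk samples fewer cells of a type and less RNA per cell cannot be told apart. With the log2 astrocyte marker level as a covariate, an alternative chosen after the data were seen, Tfeb still passed in all 4 sets with changes of 0.97, 1.34, 1.25 and 1.11, and Ctsz with 1.87, 2.09, 1.59 and 1.88. Lamp1 then had changes of -0.18, -0.34 and -0.43 with vector and PBS, upACSS2 and PBS, and upACSS2 and tau. With upACSS2 these passed as falls (adjusted p 0.0471 in PBS and 0.0427 in tau). Atp6v1h then passed as a rise with upACSS2, by 0.18 in PBS (adjusted p 0.0446) and 0.24 in tau (adjusted p 0.0299). With the oligodendrocyte marker level as covariate Tfeb no longer passed in any set, and Ctsz passed in all 4 (2.48, 2.11, 1.66 and 2.25). In that fit 13, 15, 11 and 15 of the 39 passed, and the shares of all genes are not given here. The drop from the counts without a covariate may thus not be particular to the 39. Map1lc3a then had changes of 0.06, 0.04 and 0.10 with upACSS2 and PBS, upACSS2 and tau, and vector and tau, and Ulk1 of 0.01, 0.06 and 0.14 with vector and PBS, vector and tau, and upACSS2 and tau, so their falls turned in sign. Both marker levels differ between the days themselves, so these fits compare the days at a marker level that no libraries of both days share.

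The next question was whether raised Acss2 altered these genes in neurons. On day 9, 6 of the 39 passed in PBS (15.4%, against 10.2% of all genes) and none in tau: 2 rose (4.9% of all genes) and 4 fell (5.35%). The enzymes were lower on balance, by little: 3 of 12 fell and 1 rose, and their median log2 fold change was -0.04, against 0.00 for all genes. Ctsl, cathepsin L, was at 116, 114 and 112 CPM with vector and at 102, 93.8 and 99.0 CPM with upACSS2 (log2 fold change -0.22 ± 0.05, adjusted p 0.012). Hexa was at 31.5, 32.7 and 30.1 CPM with vector and at 24.9, 28.7 and 26.8 CPM with upACSS2 (-0.24 ± 0.07, adjusted p 0.0205). Gusb, beta-glucuronidase, also fell (-0.41 ± 0.13, adjusted p 0.0444). Tpp1 went the other way, from 24.4, 20.2 and 23.8 CPM to 27.6, 28.3 and 28.8 CPM (0.29 ± 0.07, adjusted p 0.0174). Of the pump, Atp6v1h (chr1:5070018-5162529, plus strand), its regulatory H subunit, fell by 0.16 (adjusted p 0.0161). The same vector libraries serve in the comparison with tau below. Of the autophagy genes Ulk1 rose by 0.23 (adjusted p 0.0196). In each of these 6 genes the 3 libraries of one virus lay apart from the 3 of the other, as 15 of the 39 and 30.8% of all genes did. Tfeb did not differ (0.01 ± 0.19), at 1.83 ± 0.25 CPM with vector and 1.80 ± 0.25 CPM with upACSS2. None of the 6 passed in a fit of both days together (24 libraries), whose shared spread was too wide for day 9. Between 1 and 6 passed as each library was left out.

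In tau on day 9 edgeR and DESeq2 both called 0 of 39 (0.692% of all genes by edgeR), with 3 of 39 and 12.6% of all genes under an unadjusted p of 0.05. Hexa came nearest, with 31.1, 30.9 and 33.9 CPM with vector and 26.6, 28.0 and 26.6 CPM with upACSS2 (-0.24 ± 0.07, adjusted p 0.0833).

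On day 21 none of the 39 passed for upACSS2 against vector, in PBS (0.0137% of all genes) or in tau (0.0273%), by edgeR; DESeq2 gave 3 (Ctsl, Ctsz and Hexa, all lower) and 0. Under an unadjusted p of 0.05 lay 8 of 39 in PBS (16.6% of all genes) and 3 in tau (10.7%). In PBS 11 of the 12 enzymes had lower values with upACSS2, with a median log2 fold change of -0.39 against 0.00 for all genes, and in 8 of the 12 the groups did not overlap (17.4% of all genes). Of these 8, 7 were lower with upACSS2, and Gla was higher, at 17.3, 19.5 and 18.9 CPM against 16.8, 16.9 and 13.7 CPM with vector. Hexa had the lowest p, with 59.9, 72.1 and 75.6 CPM with vector and 52.5, 55.5 and 46.6 CPM with upACSS2 (-0.44 ± 0.11, p 0.00173, adjusted p 0.157). Ctsz was at 17.1, 13.2 and 27.0 CPM with vector and at 9.75, 8.34 and 9.75 CPM with upACSS2 (-1.06 ± 0.29, adjusted p 0.174, and -0.70 without replicate 3 of vector). In a fit of both days together (24 libraries), whose shared spread was too narrow for day 21, 8 of the 39 passed in PBS. The share of all genes in that fit is not given here, so this count has no background. The replicate of vector and PBS that was highest in Ctsz was also the one with 21121 CPM of astrocyte markers, and the part of astrocyte RNA in these differences was not tested. In tau the enzymes had a median of -0.11, and the lowest p was that of Pik3c3, the lipid kinase VPS34 that starts autophagosomes, with 64.2, 51.4 and 55.2 CPM with vector and 41.0, 44.4 and 44.4 CPM with upACSS2 (-0.38 ± 0.10, adjusted p 0.28).

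In stimulated neurons none of the 39 passed for upACSS2 against vector in PBS (0.208% of all genes) or in tau (0.937%) by edgeR, and 1 in each by DESeq2 (Tpp1 in PBS and Hexa in tau). Under an unadjusted p of 0.05 lay 7 of 39 in PBS (15.9% of all genes) and 3 in tau (20.4%). Tpp1 came nearest in PBS, with 62.0, 60.7 and 64.0 CPM with vector and 81.8, 80.7 and 69.6 CPM with upACSS2 (0.31 ± 0.08, adjusted p 0.11). Hexa came nearest in tau, with 65.4, 60.5 and 70.8 CPM with vector and 46.0, 54.8 and 55.6 CPM with upACSS2 (-0.33 ± 0.08, adjusted p 0.0785). Tfeb had changes of 0.34 ± 0.27 and 0.26 ± 0.28.

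The 6 comparisons of upACSS2 with vector in neurons share no library. In all 6 the same sign was seen for 5 of the 39 (12.8%), about the share among 13853 genes (13.4%). Those 5 were Hexa, Pik3c3, Grn and Neu1, which were lower, and Atg9a, the lipid scramblase of autophagic membranes, which was higher. Hexa ranged from -0.09 to -0.44 on the log2 scale, with an unadjusted p under 0.05 in 5 of the 6, and Pik3c3 from -0.10 to -0.38, with 4 of 6. These genes were singled out after their values were seen.

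**Figure D3:**
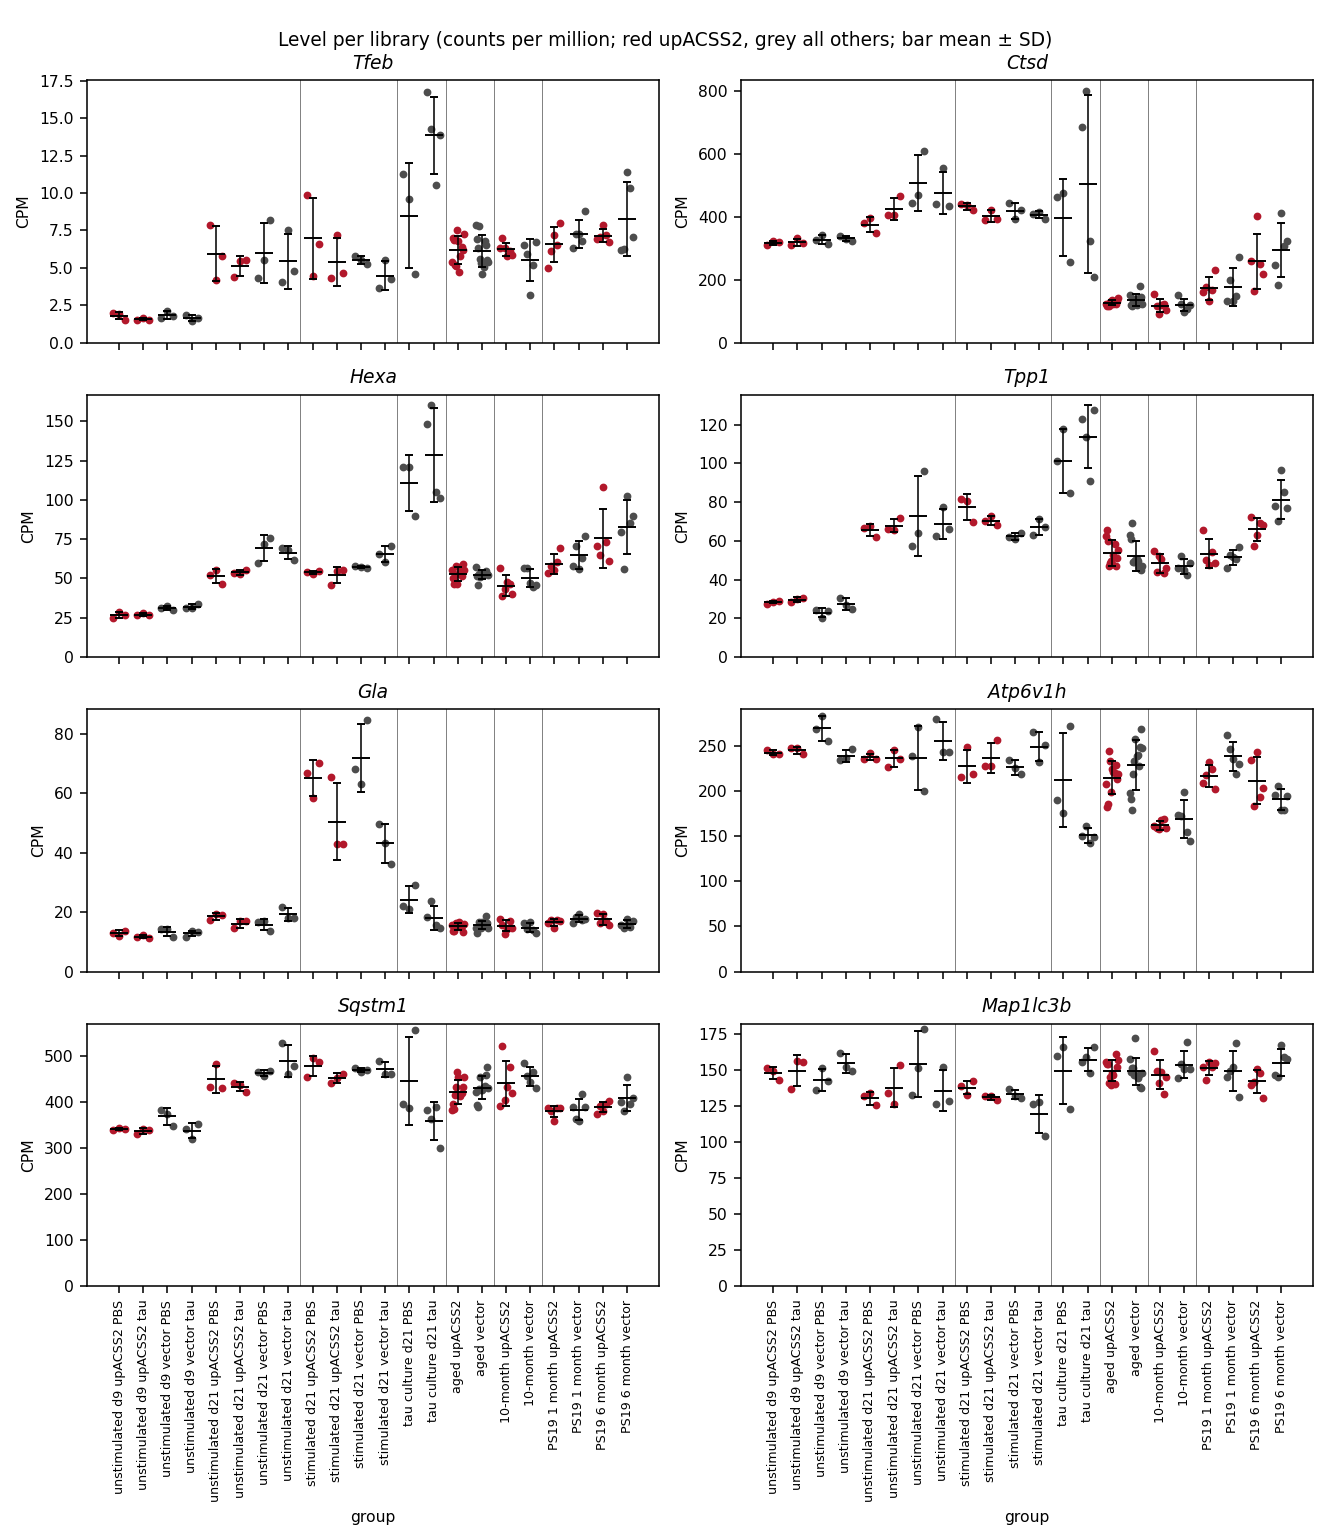
CPM per library (points; bar, mean ± SD) of Tfeb, Ctsd, Hexa, Tpp1, Gla, Atp6v1h, Sqstm1 and Map1lc3b in all 22 groups, with upACSS2 in red and all others in grey. Tfeb, Hexa and Tpp1 separate day 21 from day 9, as do Ctsd and Sqstm1 in the neurons with virus. Gla is highest in stimulated neurons, and red and grey points overlap within each kind of mice.

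The second question in neurons was the effect of hAD-tau. On day 9 with vector 1 of the 39 passed (2.56%, against 4.28% of all genes, 2.01% higher and 2.27% lower): Atp6v1h was at 269, 283 and 255 CPM in PBS and at 234, 236 and 246 CPM in tau (-0.18 ± 0.04, adjusted p 0.018). With upACSS2 it was at 245, 240 and 241 CPM in PBS and at 248, 247 and 240 CPM in tau, and no gene of the 39 passed (0.349% of all genes; 0 of 39 and 9.05% of all genes under an unadjusted p of 0.05, and 0 by DESeq2). The difference between the viruses in the effect of tau on Atp6v1h was 0.19 (p 0.00296, adjusted p 0.0902), so it did not pass in edgeR, whereas DESeq2 called it. This difference, the fall with tau and the fall with upACSS2 in PBS all rest on the same libraries of vector and PBS. Every other day 9 library was at 234 to 248 CPM, so these are not separate findings. The call for Atp6v1h was lost in the fit of all 24 libraries, whose shared spread was too wide for day 9. It was also lost with only the groups compared (adjusted p 0.0654) and without each of 4 of the 6 libraries (both groups' replicates 1 and 2, adjusted p 0.0737 to 0.0932). On day 21 none of the 39 passed with vector or with upACSS2, and none of 14639 genes did. Under an unadjusted p of 0.05 lay 4 of 39 with vector (9.3% of all genes) and 1 with upACSS2 (6.36%), and DESeq2 called none of the 39. The groups did not overlap in 2 of 39 with vector (9.47% of all genes) and in 7 with upACSS2 (17.6%).

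In stimulated neurons with vector 1 of the 39 passed for tau against PBS (3.02% of all genes). Gla (chrX:134588149-134601125, minus strand), the alpha-galactosidase lost in Fabry disease, was at 68.0, 62.9 and 84.5 CPM in PBS and at 49.5, 43.4 and 36.3 CPM in tau. The groups did not overlap, and it fell (log2 fold change -0.74 ± 0.17, adjusted p 0.0472). The call held with the replicate number as a block (adjusted p 0.0287, where 2 of the 39 passed) and was lost with only the groups compared (0.0938) and without each of 4 of the 6 libraries (both groups' replicates 1 and 3; adjusted p 0.0724 to 0.173). With upACSS2 none of the 39 passed (0.208% of all genes, 1 of 39 against 14.3% under an unadjusted p of 0.05, and 0 by DESeq2). Gla was at 36.3 to 84.5 CPM (median 60.6) in the 12 stimulated libraries and at 13.7 to 21.7 CPM (median 17.2) in the 12 unstimulated ones of day 21. It was the only one of the 39 without overlap between these libraries (2.56%), a share near that among 14665 genes (1.88%). The stimulated and unstimulated libraries came in separate tables and this difference was not tested.

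In the culture without virus none of the 39 and none of 16341 genes passed for tau against PBS, and 6 of the 39 lay under an unadjusted p of 0.05, against 13.9% of all genes; DESeq2 called none of the 39. The 4 pump subunits were lower with tau, all without overlap of the groups. Among all genes 16.7% had no overlap, counting both directions. Atp6v1b2 was at 494, 441 and 873 CPM in PBS and at 346, 419, 392 and 327 CPM in tau (-0.70 ± 0.24, adjusted p 0.323). Atp6v1a was at 572, 557 and 748 CPM in PBS and at 432, 496, 459 and 446 CPM in tau (-0.45 ± 0.14, p 0.0141, adjusted p 0.319). Atp6v1h and Atp6v0d1 had changes of -0.49 and -0.33. Replicate 3 of PBS was the highest in each of the 4 subunits and stood apart in cell makeup, with astrocyte markers of 2508 CPM against 8081 CPM or more in the other 6 libraries and neuronal markers of 8162 CPM against 4139 to 5129 CPM. Without it the changes of Atp6v1b2, Atp6v1a, Atp6v1h and Atp6v0d1 were -0.33, -0.30, -0.28 and -0.20 (adjusted p 0.352, 0.293, 0.289 and 0.393). The enzymes had a median log2 fold change of 0.28, the autophagy genes of -0.12 and all genes of 0.01. Tfeb was at 11.3, 9.60 and 4.56 CPM in PBS and at 16.8, 14.3, 10.5 and 13.9 CPM in tau (0.73 ± 0.32, adjusted p 0.365), and Cln3 was higher with tau without overlap (0.43 ± 0.14, adjusted p 0.319). Without replicate 3 of PBS their changes were 0.42 and 0.31.

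In mice none of the 39 passed for upACSS2 against vector in any of the 4 comparisons, and no other gene did (0 of 15157 in aged mice, 0 of 13629 at 10 months and 0 of 15850 in PS19 mice at either time). Under an unadjusted p of 0.05 lay 4 of 39 in aged mice (5.58% of all genes), 3 at 10 months (8.83%), 0 in PS19 mice at 1 month (2.92%) and 5 at 6 months (14.1%), and DESeq2 called none of the 39. In aged mice all 39 changes lay between -0.10 and 0.13. That fit had no term for sets of replicates, although replicates 1 to 3 stood apart from the later ones in some genes. Tpp1, for example, was at 62.7, 65.5 and 59.7 CPM in replicates 1 to 3 with upACSS2 and at 46.8 to 58.5 CPM in the later ones. With vector it was at 63.2, 60.7 and 68.9 CPM and at 45.2 to 50.5 CPM. Tfeb ranged there from 4.61 to 7.90 CPM with vector (median 5.97) and from 4.73 to 7.54 CPM with upACSS2 (median 6.31). The lowest p was that of Ulk1, with a median of 68.2 CPM with vector (57.2 to 72.2) and of 70.8 CPM with upACSS2 (68.7 to 81.0), a log2 fold change of 0.11 ± 0.04 (adjusted p 0.832). At 10 months the lowest p was that of Atg16l1, which anchors the LC3 conjugation complex, at 38.8, 39.6, 45.2, 41.7 and 45.1 CPM with vector and a median of 49.1 CPM with upACSS2 (44.0 to 55.5; 0.21 ± 0.08, adjusted p 0.518). In PS19 mice at 6 months the lowest p was that of Tpp1, at 78.0, 70.2, 96.4, 85.1 and 76.7 CPM with vector and at 72.4, 57.1, 63.2, 69.3 and 68.1 CPM with upACSS2 (-0.30 ± 0.10, p 0.00544, adjusted p 0.214). In each of these the groups overlapped.

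The PS19 mice also allowed a comparison of 6 months with 1 month after injection, that is of age 8.5 to 9 months with 3.5 months. With vector 3 of the 39 rose (4.59% of all genes) and 1 fell (2.87%; 7.46% in all). Tpp1 was at 45.9, 52.5, 51.8, 50.4 and 56.8 CPM at 1 month, below all 5 values at 6 months given above (0.66 ± 0.10, adjusted p 0.000839). Ctsa (chr2:164832873-164841032, plus strand) was at 63.1, 67.7, 61.5, 70.6 and 83.5 CPM at 1 month and at 98.9, 80.4, 145, 112 and 114 CPM at 6 months, with 1 value of each group in overlap (0.67 ± 0.13, adjusted p 0.00511). Cln3 was at 6.58, 5.36, 6.17, 8.73 and 9.22 CPM at 1 month and at 10.3, 9.03, 14.7, 11.7 and 10.2 CPM at 6 months, again with slight overlap (0.64 ± 0.15, adjusted p 0.0163). Atp6v1h fell from 261, 246, 235, 219 and 229 CPM to 195, 205, 179, 179 and 194 CPM, without overlap (-0.32 ± 0.08, adjusted p 0.0194). By role the median log2 fold change was 0.50 for the enzymes, of which 10 of 12 were positive, 0.28 for the membrane genes, -0.17 for the pump, of which 4 of 4 were negative, and 0.00 for the autophagy genes, against 0.01 for all genes. Under an unadjusted p of 0.05 lay 21 of the 39 and 25.1% of all genes.

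Of the other pathway genes Npc1, the cholesterol transporter of the lysosome, rose by 0.83 ± 0.13 on the log2 scale, Ctns, the cystine transporter, by 0.63 ± 0.11 and Arsa, arylsulfatase A, by 0.41 ± 0.08. Among those tested 3 of 31 other enzymes and 4 of 15 other membrane proteins rose, and 2 of 14 other pump subunits fell, Atp6v1d and Atp6v1f. With upACSS2 none of the 39 passed between the times (0.0442% of all genes; 11 of 39 against 13.7% under an unadjusted p of 0.05, and 1 by DESeq2). Tpp1 was then at 65.8, 50.3, 47.5, 54.1 and 48.6 CPM at 1 month and rose in no adjusted test by 6 months (0.32 ± 0.10, adjusted p 0.199). The tissue label also differs between these 2 times with upACSS2. The difference between the viruses in the change over time passed for none of the 39 and for none of all genes (edgeR; 8 of 39 against 12.3% under an unadjusted p of 0.05, and 0 by DESeq2).

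The marker sums of the vector mice overlapped between the times. The microglial sum was 371 to 1186 CPM at 1 month (median 468) and 544 to 1337 CPM at 6 months (median 958), the astrocyte sum 4794 to 7466 CPM (median 7142) and then 5902 to 11313 CPM (median 7553), and the neuronal sum 13107 to 16660 CPM (median 14490) and then 9283 to 14435 CPM (median 13594). With the microglial level as a covariate, chosen after the data were seen, the 4 genes passed, and 7 of the 39 in all. Tpp1 was then at 0.60, Ctsa at 0.46, Cln3 at 0.52 and Atp6v1h at -0.33. With the astrocyte level they were at 0.58, 0.50, 0.58 and -0.33, and 7 passed. With the neuronal level 3 of the 39 passed, Tpp1 (0.57), Ctsa (0.44) and Gabarap (-0.33), while Cln3 (0.40, adjusted p 0.0747) and Atp6v1h (-0.28, adjusted p 0.064) did not. The median of each marker sum differed between the times. A call in these fits thus does not say what part cell makeup had, which was not tested. The shares of all genes in these fits are not given here, so the counts have no background. Tpp1 and Ctsa passed without each of the 10 libraries in turn, Cln3 was lost without either of 2 of them and Atp6v1h without any of 3. The count ran from 2 without replicate 1 of the 1-month vector mice to 9 without replicate 5, the mouse with the highest microglial level of its group (1186 CPM).

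Among libraries of the same PS19 group many of the lysosomal genes followed the cell type markers, upward with microglial and astrocyte markers and downward with neuronal ones; which of these they followed was not tested. In a fit chosen after the data were seen, with the 4 groups as terms and the log2 summed microglial level as a slope, 12 of the 39 had a positive slope that passed and none a negative one (30.8%, against 7.95% of all genes). They were Tfeb, the membrane genes Lamp1, Lamp2 and Scarb2, and 8 of the 12 enzymes, and no gene of the pump or of the autophagy machinery was among them. Ctsz had the steepest slope, 1.03 ± 0.07 log2 units per doubling of the markers, next to Ctsd (0.76 ± 0.08), Grn (0.62 ± 0.09) and Gusb (0.62 ± 0.10). Ctsz was at 35.1, 61.0, 38.9, 34.9 and 94.5 CPM in the 1-month vector mice, whose microglial sums were 468, 727, 448, 371 and 1186 CPM in the same order. The count stayed between 11 and 14 without each of the 20 libraries in turn; the slope of Grn was 0.40 without replicate 5 of the 1-month vector mice, and the call of Tfeb was lost without any one of 8 libraries. Tpp1 and Cln3, which rose with time, were not among the 12. The slope on astrocyte markers passed for 11 of the 39 (6.12% of all genes), but for only 1 without the 2 libraries farthest from the median and 2 without either replicate 2 or replicate 3 of the 6-month vector mice. The slope on neuronal markers passed for 12 of the 39 as well (30.8%, against 11.4% of all genes), 1 positive and 11 negative. The 11 were Tfeb, Lamp1, Scarb2, Cln3 and 7 of the 12 enzymes, with Ctsz at -1.86 ± 0.47 and Ctsd at -1.48 ± 0.36 log2 units per doubling, and the positive slope was that of Atp6v1a (0.65 ± 0.16). That count was 4 without replicate 2 and 0 without replicate 3 of the 6-month vector mice, and 1 without the 2 libraries farthest from the median. The slope on oligodendrocyte markers passed for 1 of the 39 (2.56%, against 2.03% of all genes). In aged mice the microglial slope passed for Ctsd, Ctsz and Wipi1, 3 of 39 (2.62% of all genes), and for 0 without replicate 10 of vector. The group terms there were replicates 1 to 3 and the later ones of each virus. Correlation of this kind is across mice and does not say in which cells a gene was expressed.

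**Figure D4:**
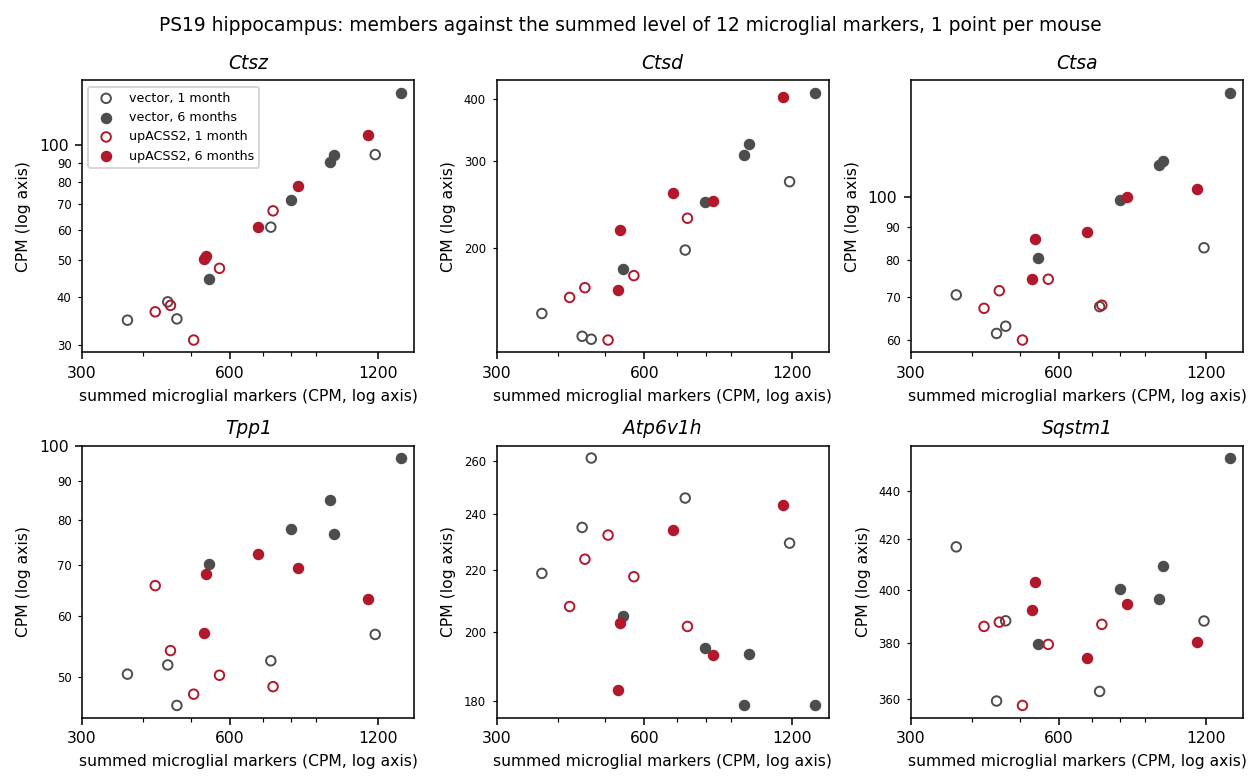
CPM of Ctsz, Ctsd, Ctsa, Tpp1, Atp6v1h and Sqstm1 against the summed CPM of 12 microglial markers, both on log axes, in the 20 PS19 libraries; colours mark virus and time. Ctsz and Ctsd climb with the markers within each group, and Atp6v1h and Sqstm1 stay within a narrow range.

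The last comparison set each gene against Acss2 library by library, within groups, so that upACSS2 was not compared with vector. Among upACSS2 libraries the spread of Acss2 may follow the amount of virus delivered, which was not tested. Each set with virus had 1 slope, shared by its upACSS2 and vector groups. In aged mice each virus was further split into replicates 1 to 3 and the later ones, and these sets served as the groups. The slope on log2 Acss2 passed for none of the 39 in any of the 7 sets of libraries (edgeR; 2 genes in all in day 9 neurons, 0.0143%, and 0 in each other set). Under an unadjusted p of 0.05 lay 2 of 39 in day 9 neurons (6.4% of all genes), 1 in day 21 neurons (13.4%), 3 in stimulated neurons (14.9%), 4 in aged mice (6.55%), 0 at 10 months (3.07%), 0 in PS19 mice (1.97%) and 16 in the culture without virus (26.2%). The PS19 mice offered the widest spread of Acss2. At 1 month it ran from 60.1 to 1465 CPM among upACSS2 mice and from 51.5 to 66.3 CPM among vector mice. There Tfeb had a slope of 0.02 ± 0.06, Ctsd of 0.01 ± 0.09, Atp6v1h of -0.01 ± 0.03 and Sqstm1 of -0.01 ± 0.02 log2 units per doubling of Acss2. In aged mice Tfeb had a slope of -0.84 ± 0.40 (adjusted p 0.759).

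As Pearson correlations of deviations from group means, tested by permutation of libraries within groups and adjusted over the genes of a set, none of the 39 passed in any set. In aged mice the groups were again the sets of replicates within each virus. The smallest p that permutation allows was 0.00694 without virus and 0.000772 in the other neuron sets, over 14021 to 16340 genes. An adjusted p under 0.05 there needed many genes to share the smallest p, so failing to pass there says little. In the 20 PS19 libraries r lay between -0.337 and 0.330. In the 24 aged mice the lowest was that of Wipi1, a phosphoinositide binder of early autophagosomes (r -0.698, rho -0.583, permutation p 0.00071, adjusted p 0.492, r -0.544 with the 2 mice of most extreme Acss2 left out). In the 12 libraries of day 9 the highest was that of Ctsz (r 0.902, rho 0.944, permutation p 0.00232, adjusted p 0.840, r 0.847 without the 2 farthest). In the 7 libraries without virus, where Acss2 was at 47.7, 53.1 and 33.5 CPM in PBS and at 94.6, 73.2, 54.4 and 71.6 CPM in tau, Lamp1 had r 0.876 and rho 0.861 (exact permutation p 0.00694, the smallest that permutations within groups allow; adjusted p 0.111) and r 0.744 without the 2 farthest. Tfeb had r 0.874 and rho 0.854 there (exact permutation p 0.0208, adjusted p 0.155), and r fell to 0.538 without those 2. In that culture the microglial and astrocyte levels differed between libraries as well: the slope on astrocyte markers passed for 19 of the 39, 9 positive and 10 negative (35.1% of all genes), and for 0 without replicate 3 of PBS, and the part of cell makeup in the relation with Acss2 was not tested.

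**Figure D5:**
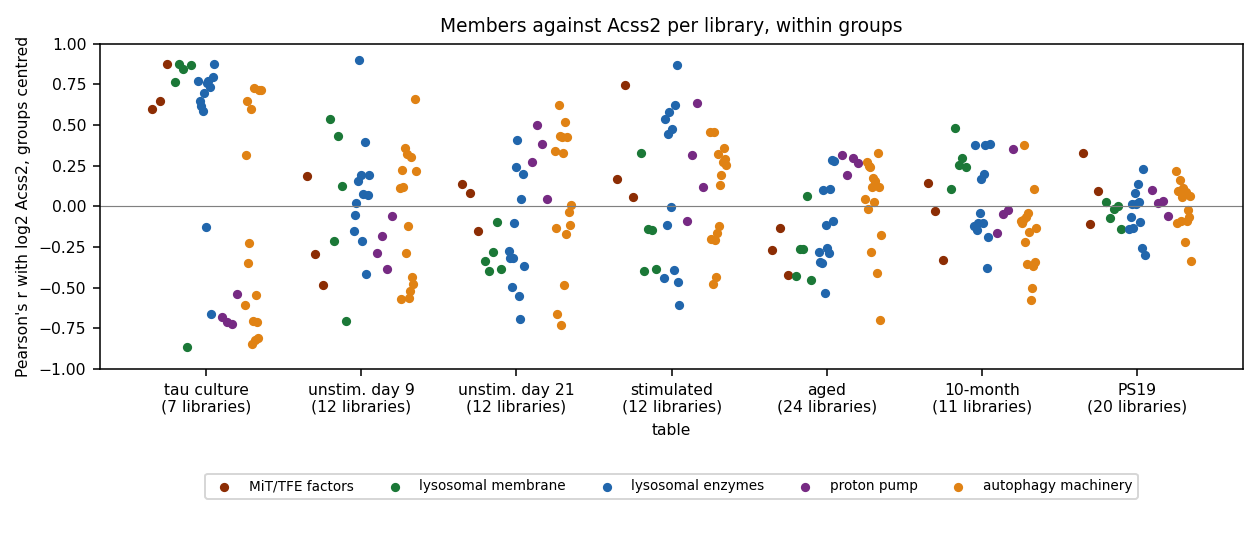
Pearson's r between the log2 level of each of the 39 genes and log2 Acss2, after removal of group means, in 7 sets of libraries. In aged mice the means were those of replicate sets within each virus. Each point is 1 gene, coloured by role. The points lie closest to 0 in the 20 PS19 libraries and are spread widest in the 7 libraries of the culture without virus, the smallest set.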

How the data were processed

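RNA from 98 samples in 22 groups was sequenced (Trizol and RNeasy extraction and an NEB library kit, per the labels' protocols). The authors deposited whole-number read counts per gene in 6 tables, which are raw counts. The submitters' processing notes name mm10, STAR, featureCounts, HTSeq and DESeq2, without versions or roles. Rows that name no gene (6.13 to 8.74% of counts in the culture without virus) were left out. No libraries were identical, and none of 242 pairs within groups agreed within sampling noise. Each table was fitted on its own in R 4.3.3 with edgeR 4.0.16 (TMM scaling, filterByExpr by group, quasi-likelihood F test, Benjamini-Hochberg over all genes tested, threshold 0.05). Unstimulated neurons were fitted on the 12 libraries of the day, and the days on all 24. SE is the size of the log2 fold change over the root of F. The script was tested on simulated data. The 39 genes, the pathway and marker lists and the tests were chosen with earlier results of these data known. Genes named are Acss2, the 3 MiT/TFE factors, Ctsd, Lamp1, Atp6v1h, Sqstm1 and Map1lc3b, up to 4 called genes per role (or the gene of lowest p) and up to 2 per further list; Ctsz and Gla on day 21, Neu1, Psap, Grn and the pump and Cln3 of the culture without virus were named after their values were seen. Alternatives were DESeq2 1.42.0, RLE scaling, no filter, other sets of libraries, a replicate block and leaving out each library. Same-numbered libraries deviated together in every pair (correlation over 0.1) in the culture without virus (0.220 to 0.394), in stimulated neurons with tau (0.111 to 0.359) and in stimulated neurons with vector (0.123 to 0.326). They did not in stimulated neurons in PBS (-0.111 to 0.145) or with upACSS2 (-0.115 to 0.156). Differently numbered libraries were not compared, so this cannot show whether the numbers pair samples. The values printed come from fits on groups without the block, which is the alternative. Total counts per library set the precision; no interval of single counts is used.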

Additional observations from a re-analysis of the deposited data

Results flagged for a closer look

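In groups of 4 to 10 samples 4 of 84 tests over 12 genes found the highest or lowest library far from the others by Dixon's criterion, where chance gives 1 in 20, or 4.2. Sqstm1 was lowest at 358 CPM in replicate 3 of the PS19 upACSS2 mice at 1 month, whose other libraries were at 379 to 388 CPM. Acss2 was highest at 66.3 CPM in replicate 1 of the PS19 vector mice at 1 month, against 51.5 to 53.1 CPM. Mitf was highest at 16.5 CPM in replicate 1 of the PS19 upACSS2 mice at 6 months, against 11.99 to 12.50 CPM. Lamp1 was highest at 308 CPM in replicate 2 of the 10-month vector mice, against 259 to 262 CPM.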

How the results depend on the processing

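Counts below are of the 39 genes past the threshold, and the cause of each shift was not tested. The shares of all genes under these settings are not given here, so a shift may not be particular to the 39. DESeq2 gave 8 for 6 months against 1 month in PS19 vector mice (4 in edgeR) and 1 with upACSS2 (0), 1 for the interaction on day 9 (0), 2 for tau against PBS in stimulated neurons with vector (1), 3 for upACSS2 against vector in PBS on day 21 (0), and 1 each for that comparison in stimulated neurons in PBS and in tau (0). Without the filter on low counts the interaction on day 9 gave 2, tau against PBS with vector on day 9 gave 4 and upACSS2 against vector in tau on day 9 gave 1. In the fit of all 24 unstimulated libraries tau against PBS with vector on day 9 gave 0, and upACSS2 against vector gave 0 in PBS on day 9, 8 in PBS on day 21 and 2 in tau on day 21. The spread shared in that fit was too wide for day 9 and too narrow for day 21. With only the 2 groups compared, tau against PBS with vector gave 0 on day 9 and 0 when stimulated. The replicate block gave 2 for tau against PBS in stimulated neurons with vector and changed no other count by over 1.5 times.

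With marker levels as covariates, chosen after the data were seen, PS19 vector mice gave 7 (astrocyte), 7 (microglia) and 3 (neuron). Day 21 against day 9 gave 16 with the astrocyte level for vector and PBS, and with the oligodendrocyte level 13 and 15 for vector in PBS and in tau and 11 and 15 for upACSS2. Without the 2 libraries farthest from the median the astrocyte slope gave 1 in PS19 mice, 0 in the culture without virus and 0 on day 21, the neuronal slope 1 in PS19 mice, and the microglial slope 0 in aged mice and 9 in the culture without virus.

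Leaving out each library gave 2 to 9 for PS19 vector mice over time, 0 to 2 for the interaction on day 9, 0 to 4 and 0 to 2 for tau against PBS with vector on day 9 and when stimulated, 1 to 6 for upACSS2 against vector in PBS on day 9 and 0 to 1 in tau when stimulated. It gave 0 to 3 for the Acss2 slope in the culture without virus, 2 to 13, 0 to 27 and 0 to 8 for the astrocyte slope in PS19 mice, that culture and day 21, 0 to 16 for the neuronal slope in PS19 mice, and 0 to 4 and 0 to 8 for the microglial slope in aged mice and that culture.

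Signs turned as follows (log2). With the astrocyte level, Atp6v1h and Lamp1 passed in the turned direction with upACSS2, in PBS and in tau. No other turned value passed. For day 21 against day 9 with the astrocyte level, Atp6v1h became 0.18 and Lamp1 -0.34 and Ctsb -0.0079 for upACSS2 in PBS; Atp6v1h 0.24, Lamp1 -0.43, Cln3 -0.15, Ctsl -0.12 and Wipi1 -0.20 for upACSS2 in tau; and Lamp1 -0.18 for vector in PBS. With the oligodendrocyte level, Grn became 0.15, Gusb -0.071 and Map1lc3a 0.060 for upACSS2 in PBS; Ctsl -0.076, Gusb -0.029, Map1lc3a 0.036, Ulk1 0.14 and Wipi1 -0.023 for upACSS2 in tau; Atg9a 0.21, Gabarap -0.10, Gusb -0.050 and Ulk1 0.015 for vector in PBS; and Map1lc3a 0.10 and Ulk1 0.062 for vector in tau. For the astrocyte slope of the culture without virus, leaving out each library gave -0.287 to 0.012 for Atg16l1, -0.274 to 0.093 for Atp6v1h and -0.212 to 0.0033 for Neu1, the highest each time without replicate 3 of PBS, and Atg16l1 became 0.31, Atp6v1b2 0.044, Map1lc3a 0.030, Map1lc3b -0.11 and Neu1 0.15 without the 2 libraries farthest from the median.

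Total counts per library differed widely, and genes of few counts such as Tfeb and Ctsz carry the widest errors.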
